A study of Bos taurus with 2 samples.

Results

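The nuclei described here came from day-8 bovine (Bos taurus) blastocysts and were picked out by transcripts of NANOG and PRDM14, a pair of transcription factor genes of the epiblast. RNA of single nuclei was sequenced by a droplet method from wild-type blastocysts and from wild-type blastoids, with 1 library for each. A blastoid is a blastocyst-like structure, here assembled in microwells from 8 bEPSCs, 8 bXEN cells and 16 bTSCs in a medium with LIF, activin A and Chir99021. Both materials were frozen before nuclei were isolated. The labels give neither the number of embryos or blastoids pooled nor how the embryos were produced. With 1 library per group there was no test across replicates, and all intervals below are 95% intervals that cover counting error only.

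A nucleus was gated if it held at least 2 unique molecular identifiers (UMIs, each standing for 1 captured transcript) of NANOG and PRDM14 together and at most 1 UMI of GATA2 and GATA3 together. It also had to hold at least 4000 UMIs and 500 genes, with under 10% of its UMIs from 13 mitochondrial genes. Of 944 blastocyst barcodes 693 passed these depth filters, and 94 of the 693 (13.6%, exact binomial interval 11.1% to 16.3%) were gated. The 2 libraries together held 2901 barcodes, of which 1 occurred in both. The gated nuclei held 975501 UMIs and had a median of 9868.5 UMIs (4007 to 20781) and 4002 genes. The other 599 nuclei held 5659728 UMIs, with a median of 8358.

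The blastocyst consists of the epiblast, which gives rise to the embryo proper, the hypoblast, which lines the yolk sac, and the trophectoderm, which forms the fetal part of the placenta. Epiblast and hypoblast both arise from the inner cell mass. In mammalian embryos NANOG and SOX2 mark the epiblast, GATA6, GATA4 and PDGFRA the hypoblast, and GATA2, GATA3 and CDX2 the trophectoderm. Inner cell mass cells can carry markers of both fates before they segregate, and FGF signalling from epiblast to hypoblast is a known part of that segregation.

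To set the gated nuclei against the other lineages, the remaining nuclei were gated in the same manner. Hypoblast-gated nuclei, 203 in number, had at least 2 UMIs of GATA4 and PDGFRA and did not reach the NANOG and PRDM14 or the GATA2 and GATA3 levels. Trophectoderm-gated nuclei, 246 in number, had at least 2 UMIs of GATA2 and GATA3 and fewer than 2 of NANOG and PRDM14. A further 142 nuclei were low for all these genes, and 8 passed for NANOG and PRDM14 but also held at least 2 UMIs of GATA2 and GATA3. Median depth was 8379 UMIs in hypoblast-gated, 9212 in trophectoderm-gated and 7307 in low nuclei. The gate genes are therefore descriptions of these groups, not findings about them.

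NANOG, a homeobox factor of pluripotent cells, had 120 UMIs in the gated nuclei, or 123 CPM (counts per 1000000 UMIs of the summed nuclei). Single gated nuclei held from 0 to 5 NANOG UMIs, with a median of 1, and 40 of the 94 held none. PRDM14, a PR-domain factor of pluripotent and germ cells, had 158 UMIs, or 162 CPM, with 0 to 5 per nucleus and a median of 2. Only PRDM14 was found in 40 nuclei, only NANOG in 20, and both in 34. GATA2 and GATA3 had 4 and 9 UMIs in all gated nuclei, against 432 and 230.3 CPM in the trophectoderm-gated nuclei. Membership rested on few molecules: 50 nuclei had exactly 2 UMIs of NANOG and PRDM14, 15 had 3, 17 had 4, and 12 had 5 to 7. Just outside the gate lay 93 nuclei with 1 UMI, and 252 nuclei low for GATA2 and GATA3 had 0.

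Of the listed epiblast markers 3 were not used by the gate. They were listed with earlier results of these data known, so their levels describe these nuclei and are no independent check of an epiblast label. All 3 were higher than in the other nuclei, and 2 of them at least 2-fold. SOX2, the partner of POU5F1 in the pluripotency network, had 59 UMIs in the gated nuclei and 118 in the others, or 60.5 CPM (Poisson interval 46.0 to 78.0) against 20.8 CPM, a ratio of 2.90 (2.09 to 3.998). LIN28B, an RNA-binding repressor of let-7 microRNAs, was at 171 CPM against 80.2 CPM, a ratio of 2.13 (1.78 to 2.55). Its log2 ratio of 1.09 fell below 2-fold with 0 UMIs of GATA2 and GATA3 (0.74), with nuclei weighted equally (0.96) and with a gate on PRDM14 alone (0.58). DPPA4, a chromatin protein of pluripotent cells, was at 706 CPM against 435 CPM, a ratio of 1.62 (1.49 to 1.77). As background, 11020 genes reached the minimum of 50 UMIs over both sums, and of these 3.86% were at least 2-fold higher in the gated nuclei and 9.01% at least 2-fold lower (12.9% in all). Such genes are called tested below, although no replicate test was possible.

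Against the hypoblast-gated nuclei, 1 of the 3 markers was at least 2-fold higher. In that comparison 1.59% of 7992 tested genes were at least 2-fold higher and 1.06% at least 2-fold lower (2.65% in all). SOX2 was at 34.9 CPM there, for a ratio of 1.73 (1.20 to 2.51), and DPPA4 at 558 CPM, for a ratio of 1.26 (1.15 to 1.39). LIN28B had a ratio of 2.23 (1.77 to 2.81). After each nucleus was thinned to 4000 UMIs, which left out no nucleus, SOX2 was detected in 18.1% (10.9% to 27.4%) of gated, 14.8% (10.2% to 20.4%) of hypoblast-gated and 2.03% of trophectoderm-gated nuclei. Without thinning these shares were 34.0%, 24.1% and 5.69%. DPPA4 was found in 88.3% of gated and 83.7% of hypoblast-gated nuclei after thinning (92 of 94 and 193 of 203 without).

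Genes of the hypoblast were abundant in the gated nuclei. GATA6, a zinc-finger factor that specifies hypoblast, was at 862 CPM (805 to 922), against 766 CPM in the other nuclei and 1064 CPM in the hypoblast-gated ones. Its level per nucleus ran from 0 to 30.6 UMIs per 10000, with a median of 8.27, and 12 of the 94 nuclei had 0 UMIs. HNF4A, a nuclear receptor of visceral endoderm, was at 597 CPM against 583 CPM in hypoblast-gated nuclei, a ratio of 1.02 (0.924 to 1.13), and at 45.2 CPM in trophectoderm-gated nuclei. After thinning it was found in 78.7% of gated, 79.8% of hypoblast-gated and 10.98% of trophectoderm-gated nuclei (89 of 94, 185 of 203 and 41 of 246 without). PDGFRA, the receptor for platelet-derived growth factor, was at 312 CPM against 481 CPM in the hypoblast-gated nuclei, which were chosen for it, and 34.8 CPM in the trophectoderm-gated ones. Of the 94 gated nuclei 56 also held at least 2 UMIs of GATA4 and PDGFRA and so met the hypoblast criterion as well. For these reasons the nuclei are called NANOG/PRDM14-gated below and not epiblast.

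**Figure D1:**
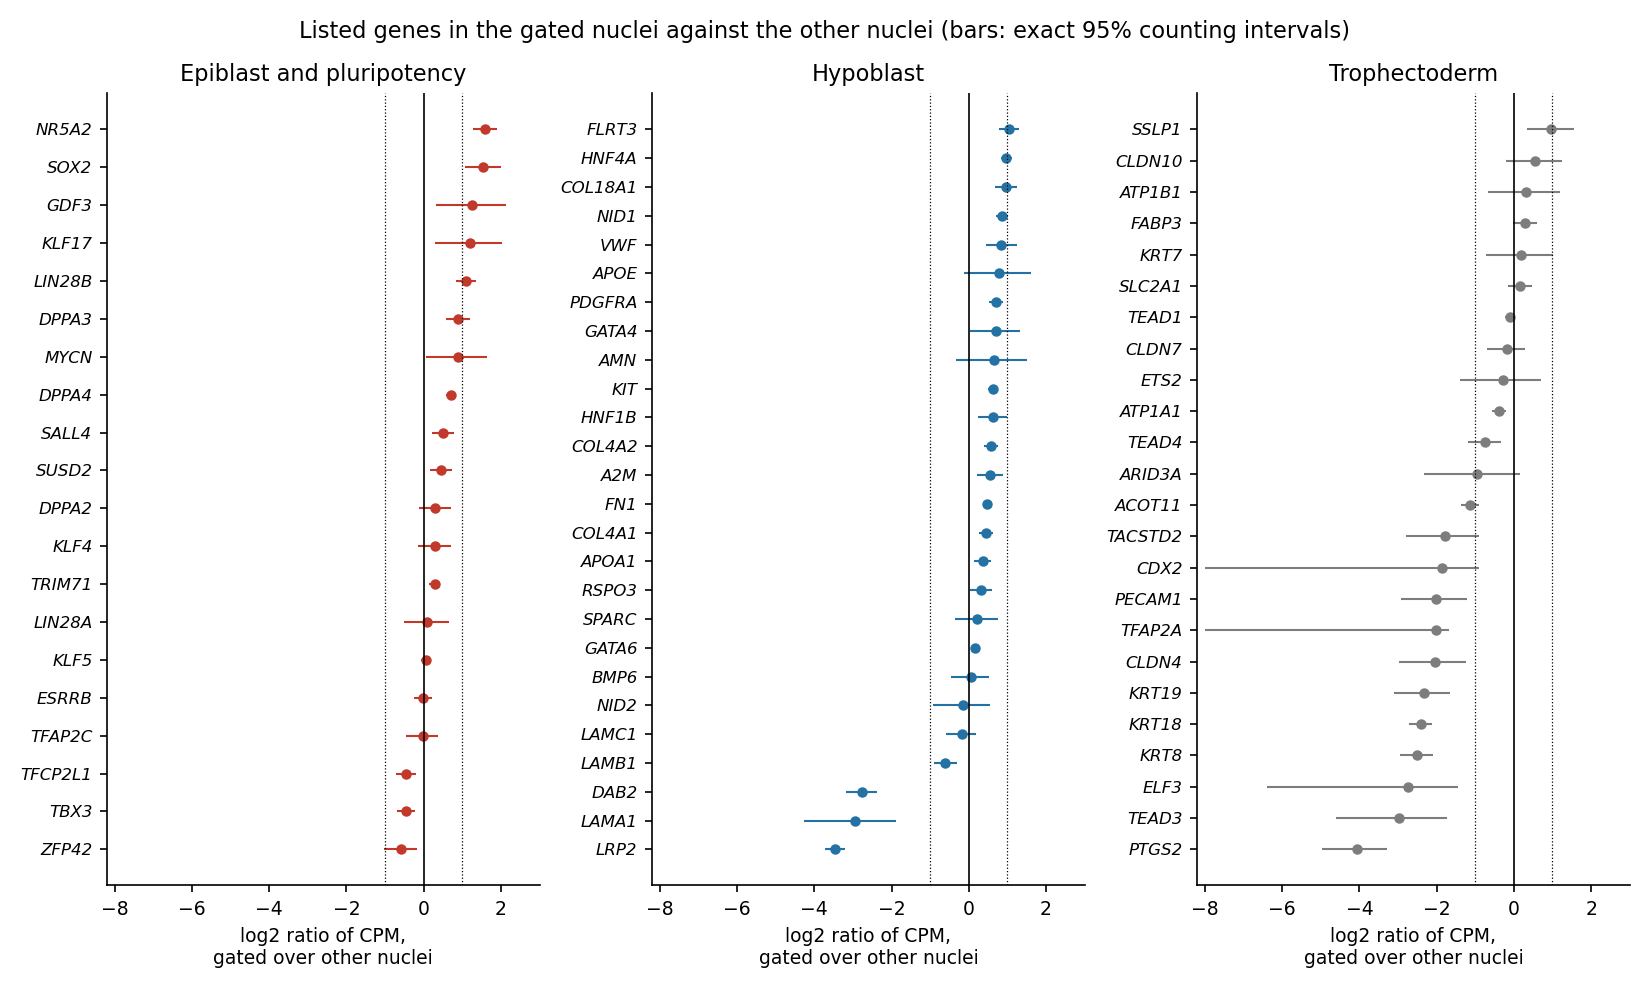
Log2 ratio of CPM, gated over other blastocyst nuclei, for the tested genes of the epiblast and pluripotency, hypoblast and trophectoderm lists, with exact 95% counting intervals. Dotted lines mark 2-fold, intervals that run past the left edge end there, and TFAP2A (0 UMIs in gated nuclei) is drawn at a floor of 3 counts. Most hypoblast genes lie above 0, with LRP2, DAB2 and LAMA1 far below, and 12 trophectoderm genes lie below the lower dotted line.

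The epiblast and pluripotency list had 20 of its 37 other genes tested, and POU5F1 was not among them since its symbol has no match in the feature list. Of the 20, 5 were at least 2-fold higher in the gated than in the other nuclei and 0 at least 2-fold lower. Over all genes the shares were 3.86% and 9.01%. The median log2 ratio was 0.37 against 0.00 for all genes tested. Besides SOX2 and LIN28B the genes at least 2-fold higher were NR5A2, GDF3 and KLF17. NR5A2, an orphan nuclear receptor that can activate POU5F1, was at 135 CPM against 45.1 CPM, a ratio of 3.00 (2.42 to 3.72). GDF3, a TGF-beta ligand, had 16 UMIs against 39, a ratio of 2.38 (1.24 to 4.36), and KLF17, a Kruppel-like factor of early embryos, had 17 against 43, a ratio of 2.29 (1.23 to 4.11). The count was 2 when nuclei were weighted equally, where the log2 ratios of GDF3 and KLF17 were 0.83 and 0.90, or when genes needed 200 UMIs. DPPA3, a maternal factor that guards against DNA demethylation, was 1.86-fold higher (1.48 to 2.31) and SALL4 1.41-fold higher (1.15 to 1.72). Of the 17 tested core and naive genes of the list 12 had a ratio above 1, beside 5522 of all 11020 genes. Among the other core and naive genes were 3 factors known from naive pluripotency: TFCP2L1 had a ratio of 0.731, TBX3 of 0.725 and ZFP42 of 0.665 (0.488 to 0.890). Against the hypoblast-gated nuclei 2 of 17 tested genes of the whole list were at least 2-fold higher and 0 at least 2-fold lower. Their median log2 ratio was 0.24 against -0.03 for all genes, of which 1.59% were at least 2-fold higher.

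The genes of the formative and primed epiblast list rise as the epiblast prepares for gastrulation. Against the other nuclei 10 of 25 were tested, with a median log2 ratio of 0.64. SOX11, an SRY-box factor, was at 62.5 CPM against 16.6 CPM, a ratio of 3.77 (2.68 to 5.25). Its log2 ratio of 1.91 was 1.35 with each nucleus thinned and 0.88 with a gate on PRDM14 alone. CDH2, or N-cadherin, was at 195 CPM against 63.4 CPM, a ratio of 3.07 (2.56 to 3.67). TCF7L1, a repressor in the WNT pathway, was at 1191 CPM against 675 CPM. The 1 gene at least 2-fold lower was GRHL2, an epithelial factor, with 10 UMIs against 598, 10.3-fold lower (5.57 to 21.6). OTX2, a homeobox factor, was at 98.4 CPM in gated and 113 CPM in hypoblast-gated nuclei. Against the hypoblast-gated nuclei 7 genes of the list were tested, with a median log2 ratio of 0.08 against -0.03 for all genes. Of the 7, 2 were at least 2-fold higher, beside 1.59% of all genes, and 0 at least 2-fold lower. CDH2 was found in 43 of 94 gated, 68 of 203 hypoblast-gated and 11 of 246 trophectoderm-gated nuclei.

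On the hypoblast list, 26 of 36 genes were tested and the median log2 ratio was 0.51. Of the 26, 20 had a ratio above 1, beside 5522 of all 11020 genes tested. Against the hypoblast-gated nuclei 4 of 22 tested genes of the list had a ratio above 1, beside 3673 of all 7992 genes. Against the other nuclei FLRT3 was at least 2-fold higher and 3 genes at least 2-fold lower: LRP2, DAB2 and LAMA1. These counts are near the shares of all genes, 3.86% higher and 9.01% lower. LRP2, the endocytic receptor megalin, was at 127 CPM against 1399.9 CPM in the other nuclei, 11.01-fold lower (9.22 to 13.3). DAB2, its adaptor, was 6.77-fold lower (5.17 to 9.04), with 50.0% of its gated UMIs from 1 nucleus, and LAMA1, a laminin chain of basement membrane, 7.71-fold lower (3.70 to 19.3). In this library all 3 were highest in the trophectoderm-gated nuclei, at 2757, 744 and 98.2 CPM, against 151, 30.5 and 15.8 CPM in the hypoblast-gated nuclei. The gated nuclei, at 127, 55.4 and 7.18 CPM, were thus nearer the hypoblast-gated than the trophectoderm-gated levels. NID1, a basement membrane linker, was at 472 CPM in gated and 530.1 CPM in hypoblast-gated nuclei, and KIT, a receptor tyrosine kinase, at 580.2 and 689 CPM. FLRT3 had a log2 ratio of 1.04, and of 0.19 with a gate on NANOG alone.

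Trophectoderm genes were low, in a comparison whose gate already set aside nuclei with GATA2 and GATA3. Of 24 tested genes 12 were at least 2-fold lower (9.01% of all genes) and 0 at least 2-fold higher (3.86%), with a median log2 ratio of -1.05. The keratins of simple epithelium were among them: KRT8 was 5.69-fold lower (4.28 to 7.73) and KRT18 5.31-fold lower (4.37 to 6.52). PTGS2, which makes prostaglandin precursors, had 13 UMIs against 1256, 16.7-fold lower (9.70 to 31.4). CDX2, which maintains the trophectoderm, had 1 UMI against 63, 10.9-fold lower (1.88 to 436), and TFAP2A 0 UMIs against 70, which is at least 4.02-fold lower at a floor of 3 counts over the group, with an exact interval that begins at 3.19-fold. FABP3, a fatty acid binding protein, was at 101.5 CPM against 82.9 CPM, a ratio of 1.22 (0.976 to 1.52), and TEAD1 had a log2 ratio of -0.11. Against the hypoblast-gated nuclei 1 of 14 trophectoderm genes, SSLP1, was at least 2-fold higher and 1, PTGS2, at least 2-fold lower. The median log2 ratio was -0.16, and over all genes 1.59% were at least 2-fold higher and 1.06% lower.

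The gated nuclei were not uniform. Splitting them by whether they held a NANOG UMI, a split chosen after values had been seen, gave 54 nuclei with NANOG UMIs, called NANOG-bearing, and 40 with PRDM14 UMIs only. Their depths were close, with medians of 10565 and 9455 UMIs. Of the NANOG-bearing nuclei 25 held at least 2 UMIs of GATA4 and PDGFRA, and of the PRDM14-only nuclei 31 did. Between the groups 4298 genes were tested, of which 4.19% were at least 2-fold higher in NANOG-bearing nuclei and 2.3% at least 2-fold lower (6.49% in all).

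HMGA2 (ENSBTAG00000044118), a chromatin protein that bends DNA and is a let-7 target, had 265 UMIs in the NANOG-bearing and 9 in the PRDM14-only nuclei, or 451 CPM (398 to 509) against 23.2 CPM (10.6 to 44.1). The ratio was 19.4 (10.1 to 43.0). In NANOG-bearing nuclei it ran from 0 to 27.3 UMIs per 10000, with 29 of 54 at 0 and a median of 0, and in PRDM14-only nuclei from 0 to 1.89. Its UMIs were thus concentrated in part of the NANOG-bearing nuclei, and 1 nucleus gave 17.0% of them. With a limit of 3 UMIs, set after values were seen, 19 of 54 NANOG-bearing and 0 of 40 PRDM14-only nuclei reached it. Of the 19, 13 lacked 2 UMIs of GATA4 and PDGFRA. Outside the gate 9 of 203 hypoblast-gated, 14 of 142 low and 1 of 246 trophectoderm-gated nuclei reached it.

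TCF7L1 separated the groups in level and in breadth. It was at 1699.8 CPM (1596 to 1809) in NANOG-bearing and 420.3 CPM (358 to 490.03) in PRDM14-only nuclei, a ratio of 4.04 (3.42 to 4.802). Single NANOG-bearing nuclei ran from 0 to 58.8 UMIs per 10000 with a median of 15.4, and only 1 of 54 had none. PRDM14-only nuclei ran from 0 to 14.5 with a median of 3.10, close to the median of 3.48 in hypoblast-gated nuclei. Trophectoderm-gated nuclei had a higher median of 7.40, and 226 of 246 held a UMI. The ranges overlapped, and the median of the NANOG-bearing nuclei lay above the highest PRDM14-only nucleus.

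**Figure D2:**
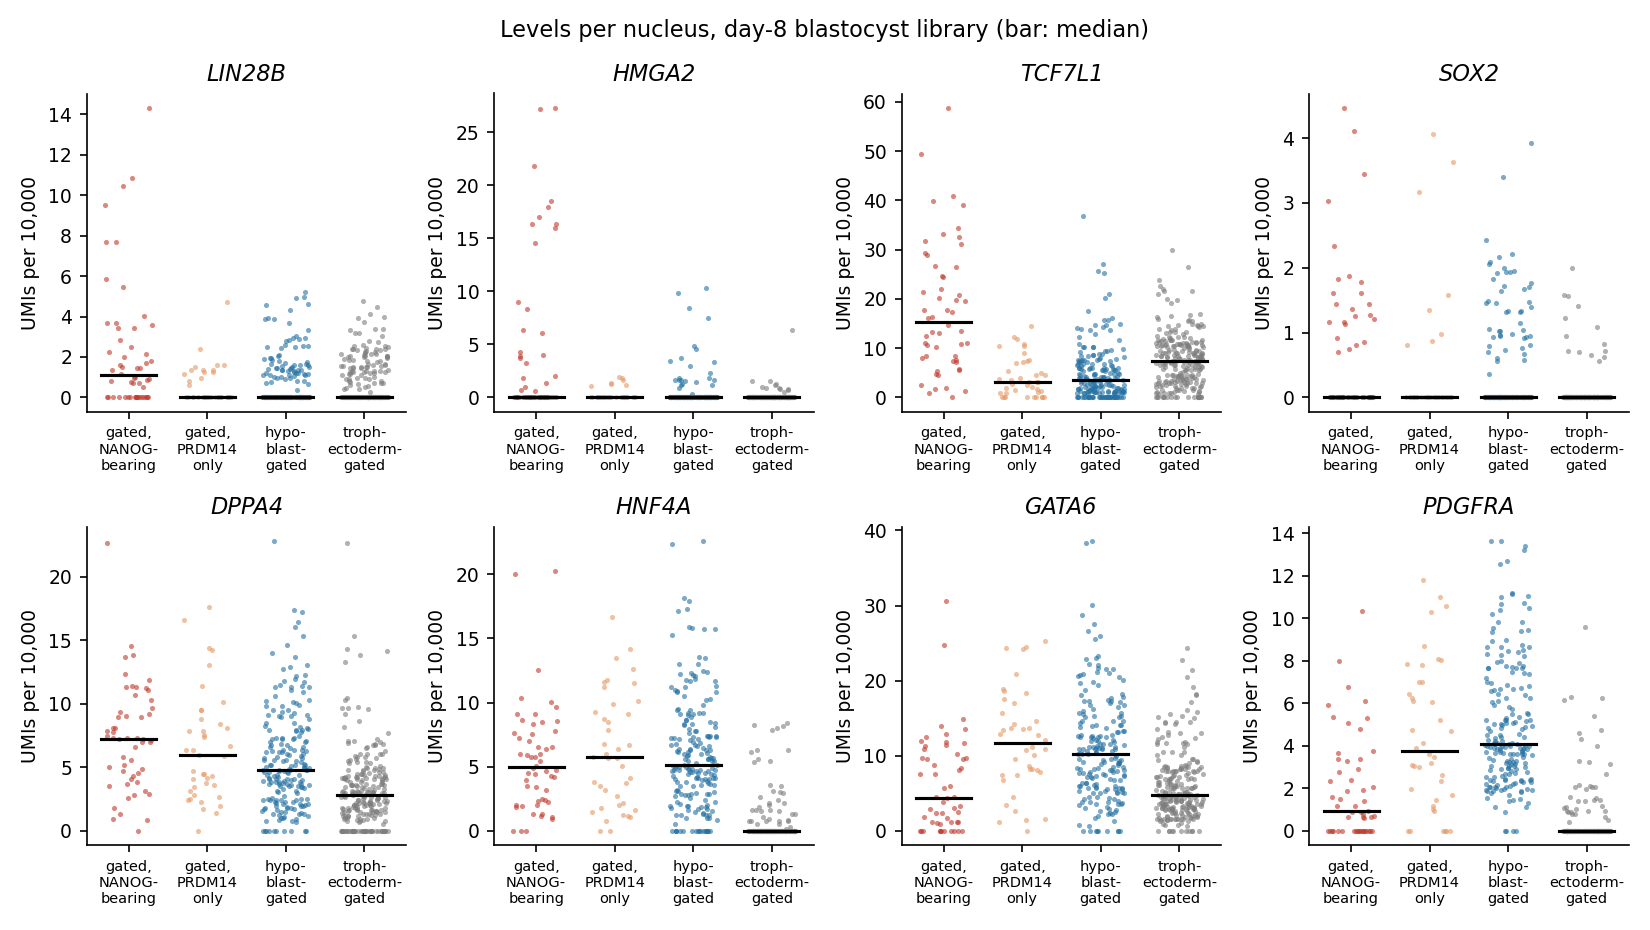
UMIs per 10000 in each nucleus for 8 genes in NANOG-bearing gated, PRDM14-only gated, hypoblast-gated and trophectoderm-gated nuclei of the blastocyst library, each point a nucleus and each bar the group's median. TCF7L1 is higher and GATA6 lower in NANOG-bearing than in PRDM14-only nuclei, HMGA2 reaches 27.3 in some NANOG-bearing nuclei and is at 0 in 29 of 54, and DPPA4 and HNF4A overlap throughout the first 3 groups.

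LIN28B, NR5A2 and SOX11 followed the same order. LIN28B was at 242 CPM in NANOG-bearing and 64.5 CPM in PRDM14-only nuclei, a ratio of 3.75 (2.44 to 5.99), beside 76.9 CPM in hypoblast-gated and 66.1 CPM in trophectoderm-gated nuclei. LIN28B was found in 44.4% of NANOG-bearing and 12.5% of PRDM14-only nuclei after thinning (36 of 54 and 14 of 40 without), with highest values of 14.3 and 4.73 UMIs per 10000. NR5A2 was at 191 CPM against 51.6 CPM, a ratio of 3.70 (2.28 to 6.28), and SOX11 at 91.9 CPM against 18.1 CPM, a ratio of 5.09 (2.31 to 13.3). CDH2 was at 245 CPM against 119 CPM, but 1 nucleus gave 18.8% of its UMIs in the NANOG-bearing nuclei. The ratio of SOX2, 73.2 CPM against 41.3 CPM, had an interval that reached 1 (0.979 to 3.37), as did that of DPPA4 (0.996 to 1.37). ZFP42, with 21 and 30 UMIs, was 2.16-fold lower in NANOG-bearing nuclei (1.20 to 3.98), and TFCP2L1 1.94-fold lower (1.37 to 2.77). Of 16 epiblast and pluripotency genes tested 3 were at least 2-fold higher and 1 at least 2-fold lower, with a median log2 ratio of 0.05 against -0.03 for all genes. Among nuclei with at least 3 gate UMIs (34 NANOG-bearing and 10 PRDM14-only) the log2 ratio of LIN28B was 1.10 against 1.91, that of SOX11 1.37 against 2.35 and that of TCF7L1 2.41 against 2.02.

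Most tested hypoblast genes had ratios below 1 in NANOG-bearing over PRDM14-only nuclei. GATA6 was at 636 CPM in NANOG-bearing and 1204 CPM in PRDM14-only nuclei, 1.89-fold lower (1.65 to 2.17). Its median per nucleus was 4.40 UMIs per 10000 in the former, near the 4.81 of trophectoderm-gated nuclei, and 11.6 in the latter, near the 10.2 of hypoblast-gated ones. PDGFRA was at 221 CPM against 449 CPM, 2.03-fold lower (1.61 to 2.57), and was found in 35 of 54 and 34 of 40 nuclei without thinning, or 42.6% and 70.0% after thinning. VWF, RSPO3 and DAB2 were the other members of the list at least 2-fold lower, although 1 PRDM14-only nucleus gave 81.8% of that group's DAB2 UMIs. COL4A1 was 1.77-fold lower (1.43 to 2.20), FN1 1.79-fold lower (1.67 to 1.92) and KIT 1.70-fold lower (1.43 to 2.01). Of 19 hypoblast genes tested 4 were at least 2-fold lower and 0 at least 2-fold higher, with a median log2 ratio of -0.69 against -0.03 for all genes. HNF4A was at 573 CPM against 632 CPM, a ratio of 0.908 (0.768 to 1.07). The 4 genes with a ratio above 1 were COL18A1 at 1.39 (0.973 to 2.01), APOA1, LAMB1 and LAMC1, and all their intervals included 1.

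**Figure D3:**
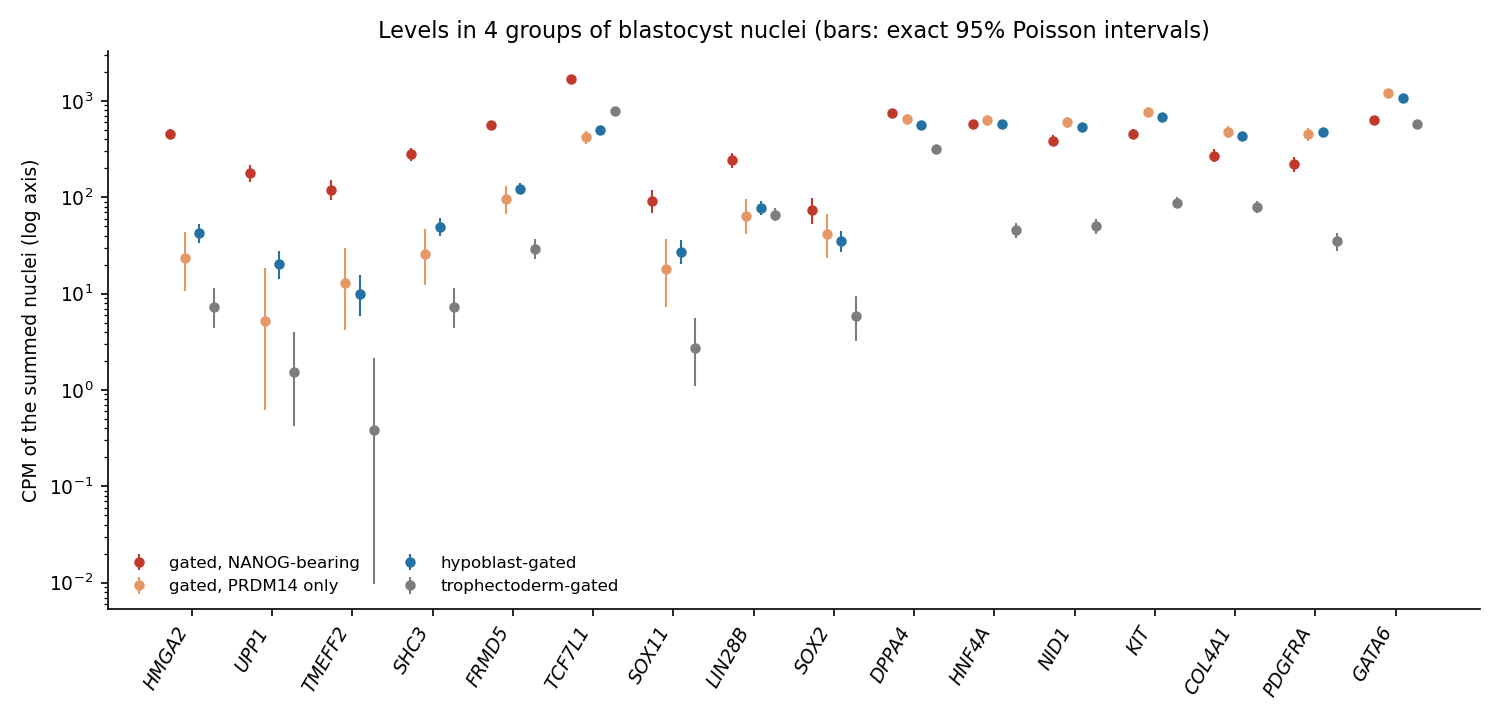
CPM of 16 genes on a log axis in the summed NANOG-bearing gated, PRDM14-only gated, hypoblast-gated and trophectoderm-gated nuclei, with exact 95% Poisson intervals. From HMGA2 to LIN28B the NANOG-bearing nuclei are highest and the PRDM14-only points lie near or below the hypoblast-gated ones, and from NID1 to GATA6 the NANOG-bearing nuclei lie below both the PRDM14-only and the hypoblast-gated points.

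The direction of the GATA6 and PDGFRA differences against the other nuclei followed the gate gene. A gate on at least 2 UMIs of NANOG alone gave log2 ratios of -0.59 for GATA6 and -0.40 for PDGFRA, and a gate on at least 2 UMIs of PRDM14 alone gave 0.44 and 1.05. With both genes summed, as above, the values were 0.17 and 0.71. GATA6 was also below 0 with at least 3 UMIs of the pair (-0.03), with at least 1 UMI of each gene (-0.16) and with the gate read on thinned counts (-0.30), while PDGFRA stayed above 0 in those 3. HMGA2 had log2 ratios of 3.40 and 1.24 under the NANOG and PRDM14 gates, against 2.66. UPP1 had 3.32 and 0.81, against 2.58.

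PRDM14-only nuclei stood close to the hypoblast-gated nuclei, from which they differ by the rules in PRDM14, in NANOG and in the GATA4 and PDGFRA UMIs that 31 of the 40 held. Though held to at most 1 UMI of the pair, 41 of 203 hypoblast-gated and 11 of 246 trophectoderm-gated nuclei held PRDM14. NANOG was found in 12 and 8 of them. Of 7137 genes tested between PRDM14-only and hypoblast-gated nuclei 0.645% were at least 2-fold higher in the former and 2.52% at least 2-fold lower (3.17% in all). On the epiblast and pluripotency list 0 of 17 tested genes were past 2-fold in either direction, and the median log2 ratio was 0.19 against -0.01 for all genes. SOX2 had a ratio of 1.18 (0.638 to 2.07), LIN28B of 0.838 (0.525 to 1.29) and NR5A2 of 0.852 (0.501 to 1.38). Those intervals include 1 but also allow differences of 1.29-fold to 2.07-fold upward. Of 22 hypoblast genes 1 was at least 2-fold higher, DAB2, for which 1 nucleus gave 81.8% of the UMIs, and 1 at least 2-fold lower, SPARC, with a median log2 ratio of 0.12. GATA6 was 1.13-fold higher (1.02 to 1.25). The median Scrublet doublet score, which estimates how much a barcode looks like a mixture of cells, was 0.0928 in PRDM14-only, 0.0821 in hypoblast-gated and 0.0590 in NANOG-bearing nuclei, and the median share of mitochondrial UMIs was 0.280%, 0.478% and 0.411%. COX1 and ND1, both mitochondrial, were among the 5 lowest genes in PRDM14-only over hypoblast-gated nuclei, 1.71-fold (1.49 to 1.97) and 1.79-fold (1.47 to 2.20) lower. The part of either measure in these values was not tested.

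NANOG-bearing nuclei against hypoblast-gated nuclei gave more differences. Of 7465 genes tested 2.93% were at least 2-fold higher and 3.22% at least 2-fold lower (6.15% in all). LIN28B had a ratio of 3.14 (2.47 to 3.995), NR5A2 of 3.15 (2.40 to 4.13), SOX11 of 3.37 (2.25 to 5.05), TCF7L1 of 3.40 (3.10 to 3.72) and SOX2 of 2.10 (1.39 to 3.13). These are the listed epiblast, pluripotency and formative genes past 2-fold, and 0 genes of those lists were at least 2-fold lower. Of 22 hypoblast genes 2 were at least 2-fold lower, GATA4 and PDGFRA, both of which had chosen the hypoblast-gated nuclei. The median log2 ratio of that list was -0.57 against -0.06 for all genes.

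The gate was also read in steps of NANOG and PRDM14 UMIs, as a description of nuclei just inside and just outside it. Among nuclei low for GATA2 and GATA3, HMGA2 was at 46.8 CPM with 0 UMIs of NANOG and PRDM14, 118 CPM with 1, 132 CPM with 2, 108.5 CPM with 3 and 552 CPM with 4 or more. LIN28B was at 64.7, 141, 101, 133 and 279 CPM in the same order. Nuclei just inside the threshold thus had levels near those just outside, and the 29 nuclei with 4 or more UMIs stood apart for both genes. SOX2 was at 32.8, 34.8, 55.0, 48.2 and 73.3 CPM. GATA6 changed less, at 906, 922, 974, 759.5 and 767 CPM. Depth rose along the same steps, from a median of 7684 UMIs in nuclei with 0 to 12405 in those with 4 or more, and the share of nuclei with NANOG UMIs also rose, from 20 of 50 nuclei with 2 gate UMIs to 8 of 15 with 3 and 26 of 29 with 4 or more. The part of either was not tested. When the gate was read on counts thinned to 4000 UMIs in every nucleus, 5.19% of the 693 nuclei passed.

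**Figure D4:**
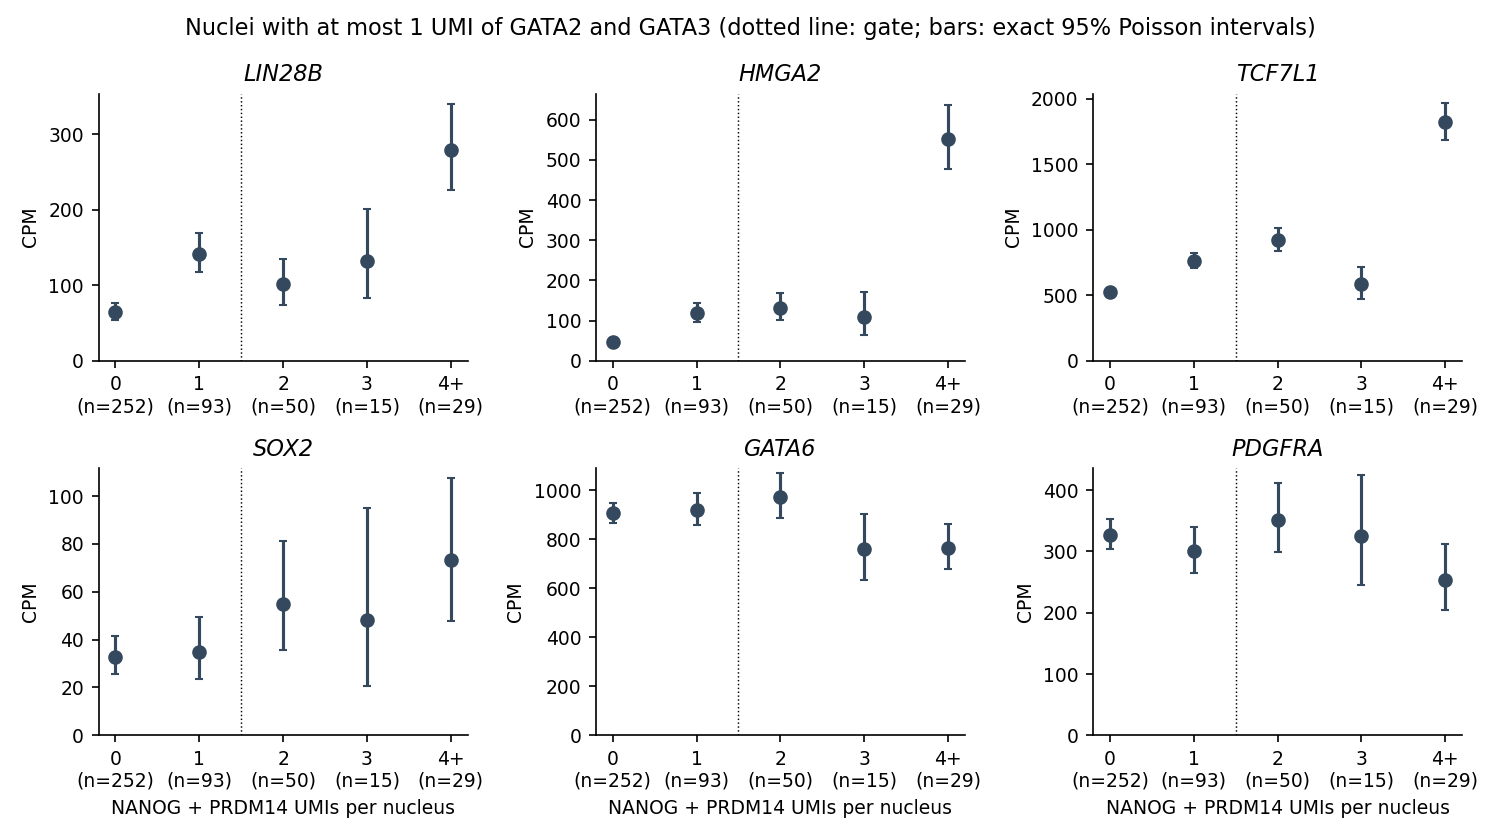
CPM of 6 genes in blastocyst nuclei with at most 1 UMI of GATA2 and GATA3, by the number of NANOG and PRDM14 UMIs per nucleus, with exact 95% Poisson intervals and the number of nuclei under each step. The dotted line is the gate, nuclei with 1 and 2 UMIs have HMGA2 at 118 and 132 CPM, and nuclei with 4 or more UMIs have the highest HMGA2, LIN28B and TCF7L1.

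By rank of the interval's bound nearest to 1, the genes with a symbol furthest above the other nuclei were HMGA2, TMEFF2, MYO3B, UPP1, GNG4, FRMD5, SULF1, SLC44A5, SHC3, RGS7, PTPRQ, GAB3, OCA2, CTNND2 and ADAMTS12. HMGA2 was at 281 CPM (249 to 316) against 44.5 CPM (39.2 to 50.4), a ratio of 6.31 (5.30 to 7.52). TMEFF2, a transmembrane protein with follistatin-like domains, was at 76.9 CPM against 10.6 CPM, a ratio of 7.25 (5.10 to 10.4). UPP1, a uridine phosphorylase, was at 109 CPM against 18.2 CPM, a ratio of 5.97 (4.51 to 7.91). MYO3B, an unconventional myosin, had a ratio of 6.39 (5.00 to 8.18), and SULF1, an enzyme that trims heparan sulfate, one of 5.32 (4.08 to 6.94). The remaining 10 had ratios from 3.42 (CTNND2) to 6.54 (GNG4). FRMD5, at 4.88-fold (4.23 to 5.62), fell to a log2 ratio of 1.57 from 2.29 when gated nuclei were held to 0 UMIs of GATA2 and GATA3. That setting also counts gated nuclei with 1 such UMI among the other nuclei. Under it HMGA2 fell from 2.66 to 2.11, TMEFF2 from 2.86 to 2.37 and UPP1 from 2.58 to 2.24.

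Against the hypoblast-gated nuclei HMGA2 again ranked first with a ratio of 6.603 (5.12 to 8.61). TMEFF2, UPP1, MYO3B, SHC3, FRMD5 and SLC44A5 were again among the 10 highest, joined by SLC25A12, AFF2 and GJC1, a connexin. The 5 lowest were ASRGL1, B4GALNT3, GRIK4, TDRD7 and GNG2, all 2.21-fold to 2.39-fold lower. TDRD7, a Tudor protein of germ granules, was at 29.7 CPM against 67.6 CPM. On the hypoblast list 0 of 22 genes were past 2-fold in either direction, beside 2.65% of all genes. The list's median log2 ratio was -0.25 against -0.03 for all genes.

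Within the gate, several of these genes lay mostly in the NANOG-bearing nuclei. UPP1 had 104 UMIs in NANOG-bearing nuclei and 2 in PRDM14-only nuclei, a ratio of 34.3 (9.26 to 287), and was found in 33 of 54 and 2 of 40 nuclei without thinning. In trophectoderm-gated nuclei it was found in 4 of 246. TMEFF2 had 70 and 5 UMIs, a ratio of 9.24 (3.78 to 29.3), and SHC3, an adaptor protein of neurotrophin receptors, 165 and 10, a ratio of 10.9 (5.77 to 23.1). ROR1, a receptor for WNT5A, had 163 and 8 UMIs, a ratio of 13.4 (6.66 to 31.7), and EDA, a ligand of the TNF family, 258 and 30, a ratio of 5.67 (3.88 to 8.58). Apart from TMEFF2 these belonged to the 10 genes ranked highest in NANOG-bearing over PRDM14-only nuclei, with HMGA2, SLC25A12, MYO3B, COL12A1, FRMD5 and SLC28A1. With at least 3 gate UMIs the log2 ratio of UPP1 was 2.86 against 4.52, and that of TMEFF2 1.89 against 3.21. Both UPP1 values set the 2 or fewer PRDM14-only UMIs to the floor of 3. The fall thus partly reflects that floor over only 10 PRDM14-only nuclei. The 5 lowest in NANOG-bearing nuclei were GRM8, MANBA, RABEP1, B4GALT5 and CD46. MANBA, a lysosomal mannosidase, was at 97.0 CPM against 358 CPM, 3.70-fold lower (2.70 to 5.12), and CD46, a complement regulator, 2.89-fold lower (2.12 to 3.97).

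The genes furthest below the other nuclei were SLC34A2, FLVCR2, PLS1, GCNT1, SLC1A1, NGEF, CRYBG2, HSD3B1, PDPN and PTGS2. SLC34A2, a phosphate transporter, had 2 UMIs in the gated nuclei and 1235 in the others, 106-fold lower (29.4 to 880). PLS1, an actin bundler of microvilli, was at 19.5 CPM against 613 CPM, 31.5-fold lower (20.1 to 52.3), and SLC1A1, a glutamate transporter, 24.5-fold lower (16.9 to 36.9). In trophectoderm-gated nuclei PLS1 was at 1236 CPM and SLC1A1 at 1381 CPM. NGEF and CRYBG2 had 0 UMIs in the gated nuclei against 290 and 289, at least 16.7-fold and 16.6-fold lower at the floor of 3 counts over the group, with exact intervals that begin at 13.5-fold and 13.4-fold. Against the trophectoderm-gated nuclei 11.7% of 8819 genes were at least 2-fold higher and 14.2% at least 2-fold lower (25.9% in all), and CDH2 was at 195 CPM against 7.73 CPM, a ratio of 25.2 (15.9 to 42.2).

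Signalling genes were read in the same comparison with the other nuclei. In FGF signalling, ligands were scarce. FGF4, the epiblast ligand that acts on hypoblast precursors, had 5 UMIs in NANOG-bearing nuclei, 0 in PRDM14-only nuclei and 2 in all other nuclei, too few for the test. FGF19 had 21 UMIs against 39, a ratio of 3.12 (1.75 to 5.44), with 20 of the 21 in NANOG-bearing nuclei and 1 nucleus giving 23.8%. Its log2 ratio of 1.64 was 0.66 with 0 UMIs of GATA2 and GATA3. Among receptors, FGFR4 was at 54.4 CPM in NANOG-bearing against 124 CPM in PRDM14-only nuclei, 2.27-fold lower (1.42 to 3.67), and at 125 CPM in hypoblast-gated nuclei. SPRY4, a feedback inhibitor, was 2.12-fold higher in gated nuclei (1.45 to 3.06), and just under 2-fold with nuclei weighted equally (log2 ratio 0.96). Its ratio to the hypoblast-gated nuclei was 1.22 (0.805 to 1.84). In all 2 of 16 tested FGF genes were at least 2-fold higher and 1, IER3, at least 2-fold lower, beside 3.86% and 9.01% of all genes. Against the hypoblast-gated nuclei 0 of 13 were at least 2-fold higher and 1, KLB, at least 2-fold lower, beside 1.59% and 1.06% of all genes. Counts this small are not results about the pathway.

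Of the activin and Nodal pathway 9 of 23 genes were tested. Of the 9, 1, GDF3, was at least 2-fold higher and 2 at least 2-fold lower, beside 3.86% and 9.01% of all genes. The log2 ratio of GDF3, 1.25, was 0.11 with the gate read on thinned counts and 0.30 with a gate on PRDM14 alone. NODAL itself had 3 UMIs in gated nuclei and 7 in the others. SMAD7, an inhibitor of the pathway, was at 14.4 CPM against 68.2 CPM, 4.75-fold lower (2.80 to 8.77), and also 2.55-fold lower than in hypoblast-gated nuclei (1.42 to 4.91). FURIN, a protease that processes Nodal precursors, had 4 UMIs against 110. Of 14 LIF and STAT3 pathway genes 0 were past 2-fold, beside 12.9% of all genes. The highest counts of that pathway belonged to IL6ST, the shared receptor chain, at 746 CPM against 497 CPM, a ratio of 1.503 (1.38 to 1.63). In hypoblast-gated nuclei IL6ST was at 861 CPM. Against them 3 of 12 genes of this pathway had a ratio above 1, beside 3673 of all 7992 genes. STAT3 was at 419 CPM in gated and 278 CPM in other nuclei, but at 359 CPM in NANOG-bearing against 547.5 CPM in hypoblast-gated nuclei, 1.52-fold lower (1.31 to 1.78). Of 16 WNT pathway genes 0 were at least 2-fold higher and 1, WNT6, at least 2-fold lower, under the 9.01% of all genes that were lower.

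In the Hippo pathway, which acts in trophectoderm specification, 5 of 23 genes were at least 2-fold lower and 0 at least 2-fold higher: AMOT, AMOTL2, CCN1, LATS2 and TEAD3. AMOT, a junctional regulator of YAP1, had 4 UMIs against 258, 11.1-fold lower (4.29 to 41.1). Of 17 Hippo genes 0 were past 2-fold against the hypoblast-gated nuclei, beside 2.65% of all 7992 genes tested. Among DNA methylation genes DNMT3A, a de novo methyltransferase, was at 103 CPM against 328 CPM, 3.20-fold lower (2.61 to 3.95), and TET1, a demethylating dioxygenase, at 567 CPM against 918 CPM. Of 14 such genes 3 were at least 2-fold lower, with GADD45A and GADD45B, and 1, MBD3, at least 2-fold higher, although its log2 ratio of 1.11 was 0.52 with the gate read on thinned counts. Against the hypoblast-gated nuclei 0 of 11 DNA methylation genes were past 2-fold, and DNMT3A was at 103 CPM in gated and 128 CPM in hypoblast-gated nuclei. Of 26 S phase and 31 G2 and M phase genes 0 were past 2-fold, with median log2 ratios of 0.13 and 0.18. Of 16 glycolysis genes 1, ALDOA, was at least 2-fold lower, with a list median of -0.26. Of 11 piRNA and germline genes 1, TDRKH, was at least 2-fold higher, and of 23 Polycomb and histone methylation genes 1, PHF19, was at least 2-fold lower with 0 UMIs against 56. The log2 ratio of PHF19, -1.69, rests on the floor of 3 counts and so depends on the size of the gated sum. It was between -0.89 and 0.00144 under 5 of the other gates, which took in fewer nuclei. These shifts follow from the floor and are not a measured change in the gene. Single genes of this kind are not results about their lists, since 3.86% of all genes were higher and 9.01% lower. Against the hypoblast-gated nuclei 0 of 14 glycolysis genes and 0 of 20 Polycomb genes were past 2-fold. Of 7 piRNA and germline genes 0 were at least 2-fold higher there and 1 at least 2-fold lower. With 2.65% of all genes past 2-fold in that comparison, counts of 0 in lists of this size are near that share. They are not results about the lists.

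Most markers of cells from outside the embryo had few UMIs. Leukocyte PTPRC had 0 UMIs in the gated nuclei, and 1 of 10 leukocyte genes had enough UMIs to test. COL1A1 and COL1A2 had 4 and 1 UMIs. Of 13 fibroblast genes 2 were tested, 1 with a ratio above 1 and 1 at least 2-fold lower. Of 13 cumulus and granulosa genes 5 were tested and 3 were at least 2-fold lower: CYP11A1 with 0 UMIs, CYP19A1 with 4 and HSD3B1 with 4. The gonadotropin receptor genes FSHR and LHCGR were an exception, with 78 and 63 UMIs in gated nuclei, or 80.0 and 64.6 CPM, and were also present in hypoblast-gated nuclei, at 74.2 and 53.4 CPM, and in trophectoderm-gated nuclei, at 113 and 26.3 CPM. The part of such cells in the results was not tested.

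The 693 nuclei were also clustered without any of the listed genes. At resolution 1.0 this gave 8 clusters, and cluster 4, of 99 nuclei and a median of 9459 UMIs, held 37 of the 54 NANOG-bearing nuclei (68.5%) and 7 of the 40 PRDM14-only nuclei (17.5%). It also held 27 hypoblast-gated nuclei, 27 low nuclei and 0 trophectoderm-gated nuclei. PRDM14-only nuclei fell mostly into clusters 1 and 2, with 13 and 9 nuclei, which held 73 and 63 of the 203 hypoblast-gated nuclei. At resolutions 0.5 and 1.5 the cluster richest in NANOG-bearing nuclei held 79.6% and 68.5% of them, and 20.0% and 2.50% of the PRDM14-only nuclei. Of the 45 nuclei with at least 3 HMGA2 UMIs 35 were in cluster 4. HMGA2 was among the genes clustered, so this count is a description.

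**Figure D5:**
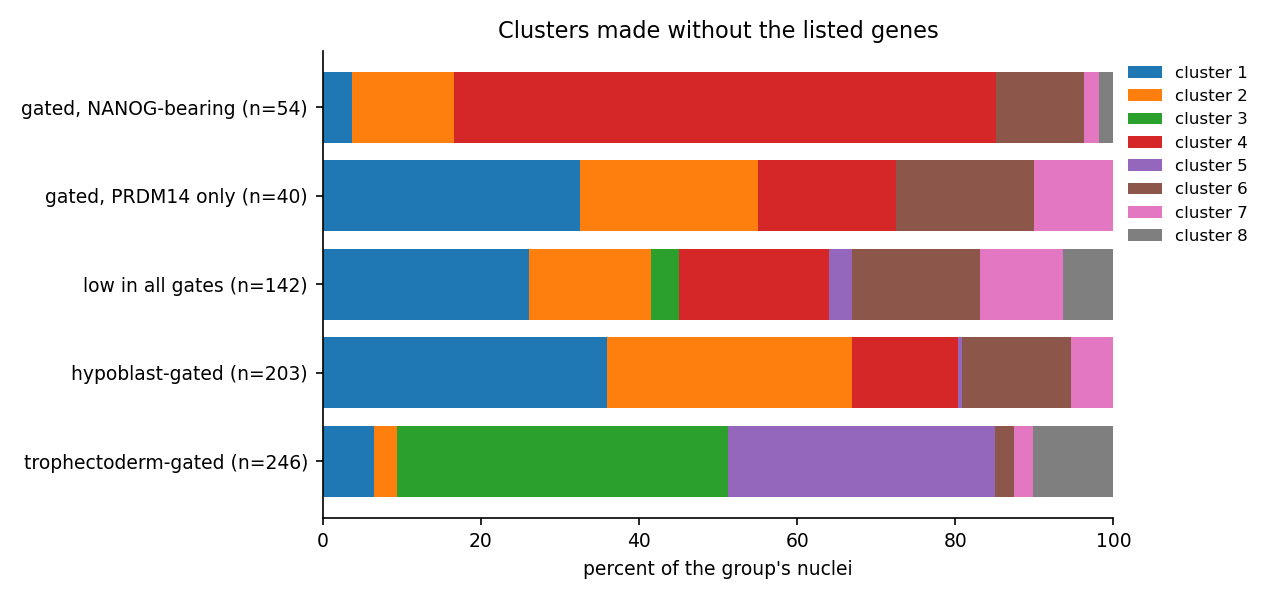
Share of each gated group's nuclei, in percent, in the 8 clusters made without the listed genes. Cluster 4 takes 68.5% of NANOG-bearing and 17.5% of PRDM14-only gated nuclei, and clusters 1 and 2 hold 13 and 9 of the 40 PRDM14-only nuclei.

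In the blastoid library 288 of 1957 barcodes passed the depth filters, with a median of 13048 UMIs, and 0 of the 288 passed the gate, which allows a share of up to 1.04% at 3 counts (exact upper bound 1.27%). Only 2 nuclei low for GATA2 and GATA3 held 1 UMI of the pair, in both cases of NANOG, and 1 nucleus with at least 2 such UMIs exceeded the GATA2 and GATA3 limit. Some genes that were highest in the NANOG-bearing blastocyst nuclei were nevertheless abundant there. In the 122 blastoid nuclei low in all gates, HMGA2 was at 579.6 CPM (541 to 620.2) and LIN28B at 494 CPM (459 to 532), while DPPA4 was at 15.3 CPM (9.56 to 23.1), UPP1 had 0 UMIs and SHC3 12. TCF7L1 was at 741 CPM and SOX2 at 41.6 CPM. The libraries differed in depth and were not compared by a test.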

How the data were processed

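Single-nucleus RNA was measured in 1 blastocyst and 1 blastoid library. The deposited matrices hold raw UMI counts for each barcode and gene. Cell Ranger 7.2.0 wrote them, per the file headers, while the submitters' processing notes name Cell Ranger 7.1.0 and Seurat 4.3.0. The genome build is not given in the sources used here. Of 434 listed genes 18 had no symbol match, and 0 Ensembl identifiers matched the reference gene table, so no coordinates or sequences are printed.

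UMI counts were summed over the nuclei of a group and divided by the sum's total (CPM). Passing blastocyst nuclei held 4007 to 80592 UMIs. Ratios carry exact conditional, CPM exact Poisson and shares exact Clopper-Pearson intervals at 95%. Tested genes had at least 50 UMIs over both sums, and counts under 3 were set to 3 for log2 ratios and medians. Detection shares in percent used nuclei thinned to 4000 UMIs unless stated otherwise, and counts of nuclei per gene were not thinned. Clusters came from scanpy 1.11.5 and leidenalg 0.10.2 (2000 variable genes, 30 components, 15 neighbours). No doublets were removed. In an alternative the 10 highest Scrublet scores of 833 were, 0 of them gated.

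Members and lists were chosen with earlier results of these data known. Named genes are the listed genes and, among symbol-bearing genes with at least 50 CPM in the higher sum and no nucleus above 20% of that sum's UMIs, the 15 with the highest lower bound and the 10 with the lowest upper bound of the ratio (10 and 5 in comparisons other than with the other nuclei). The scripts were tested on simulated data.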

Additional observations from a re-analysis of the deposited data

How the results depend on the processing

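No paired analysis was possible because each group had 1 library. The gated share of 13.6% moved most with the gate itself. It was 6.35% with at least 3 UMIs of NANOG and PRDM14, 4.91% with at least 1 UMI of each, 5.19% with the gate read on thinned counts and, in alternatives chosen after seeing the data, 5.34% with NANOG alone and 8.23% with PRDM14 alone. The 5 epiblast and pluripotency genes at least 2-fold higher became 2 with nuclei weighted equally, 3 with each nucleus thinned, 2 with a gene minimum of 200 UMIs (fewer genes tested) and 3 with PRDM14 alone. Where a cause is not given it was not tested. The counts of 3 hypoblast and 12 trophectoderm genes at least 2-fold lower stayed within 1.5 times under all 16 alternatives run for each. Over all pairs of a named gene and a setting, the ratio against the other nuclei stayed inside its own interval in 4495, moved in 447 and, among ratios past 2-fold, changed sign in 1: PHF19, at a log2 ratio of 0.00144 with the gate read on thinned counts, where the gated nuclei had 0 UMIs set to the floor. Ratios under 2-fold also changed sign, those of GATA6 and PDGFRA among them. Within the gate, restricting to nuclei with at least 3 gate UMIs (34 NANOG-bearing, 10 PRDM14-only) left 142 ratios inside and moved 51.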

Other observations

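A pair of features without a symbol, picked out after values had been seen, had UMIs within the gate in NANOG-bearing nuclei only. ENSBTAG00000021119 had 55 UMIs in the 54 NANOG-bearing nuclei, 0 in the 40 PRDM14-only nuclei, 8 in the 203 hypoblast-gated nuclei, 0 in the 246 trophectoderm-gated nuclei, 14 in the 142 nuclei low in all gates and 1 in the 8 nuclei that passed for both gene pairs. ENSBTAG00000062770 had 66, 0, 10, 4, 34 and 2 UMIs in the same groups, so the other nuclei held 23 and 50 UMIs in all. Their ratios of gated over other nuclei were 13.9 (8.39 to 23.7) and 7.66 (5.22 to 11.3). In all 288 blastoid nuclei they had 2 and 6 UMIs. The deposited files pair neither with a gene name.

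The 142 blastocyst nuclei low in all gates lay between the NANOG-bearing and the hypoblast-gated nuclei for several genes of the NANOG-bearing nuclei. HMGA2 was at 110.0 CPM (91.3 to 131) there, UPP1 at 55.5 CPM, TMEFF2 at 37.3 CPM and SHC3 at 99.1 CPM, above the hypoblast-gated levels of 42.5, 20.2, 9.82 and 49.6 CPM. GATA6 was at 656 CPM there, near the 636 CPM of the NANOG-bearing nuclei, and PDGFRA was low by the rule. NANOG was found in 9.86% of these nuclei after thinning, against 2.96% of hypoblast-gated and 1.22% of trophectoderm-gated nuclei, under a gate that held all 3 groups to at most 1 UMI of NANOG and PRDM14.

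TMEFF2 had 70 UMIs in the 2 blastoid nuclei that held a NANOG UMI at low GATA2 and GATA3, of which 1 nucleus gave 95.7%, and 57 in the 122 blastoid nuclei low in all gates. HMGA2 and LIN28B had 30 and 21 UMIs in those 2 nuclei, GATA6 had 4 and SOX2 and DPPA4 had 0.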
